A study of Homo sapiens with 6 samples.

Results

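The transcripts described here are those of sterol and fatty acid synthesis under the sterol regulatory element-binding proteins (SREBPs), in leukemia cells treated with a degrader of METTL3, the catalytic subunit of the m6A RNA methyltransferase. The members are 39 genes named by symbol (SREBP regulators, enzymes of the mevalonate and sterol pathway, enzymes of fatty acid synthesis, and genes of sterol uptake, transport and efflux), and all 39 were found among the 56305 genes counted in each library. Both groups were MOLM13, an acute myeloid leukemia cell line that carries the FLT3 internal tandem duplication. Of the libraries, 3 were made from cells given DMSO for 24 h and 3 from cells given 1 μM ZW27941 for 24 h. ZW27941 is a proteolysis-targeting chimera that brings METTL3 to the VHL ubiquitin ligase, and an effect of METTL3 loss and any other effect of the compound cannot be told apart between these groups. A single cell line was used, and nothing in the labels says that replicates came from separate cultures, so p-values measure the spread between these libraries, which may be technical.

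SREBF1 and SREBF2 encode transcription factors that are made as membrane proteins of the endoplasmic reticulum. When membrane sterol is low, the escort protein SCAP carries them to the Golgi, where proteases release the part that enters the nucleus and switches on the genes of sterol and fatty acid synthesis. When sterol is plentiful, INSIG1 and INSIG2 hold SCAP back, and oxidized sterols activate the liver X receptors (LXRs, encoded by NR1H2 and NR1H3), which switch on the exporters ABCA1 and ABCG1.

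The libraries held from 143454176 to 178744976 counts on genes. The markers of the labelled cell type, PTPRC, CD33, FLT3, CSF1R, LYZ and MPO, were at 48.2 to 963 CPM (the count of a gene over the scaled library total) as means of the DMSO libraries, while CD3E and EPCAM were under 0.05 CPM in every library, and CD79A and COL1A1 were at 1.54 and 1.02 CPM in DMSO. Of these 6 markers, CSF1R, LYZ, MPO and PTPRC rose on ZW27941, the first 3 by 0.40, 0.27 and 0.09 on the log2 scale, and CD33 and FLT3 did not pass. The part of this in the changes described here was not tested. In bulk RNA, fewer cells of a type and less RNA per cell cannot be told apart. ZW27941 replicate 3 stood apart from its group, with a mean chi-square of 7.88 and 11.5 per gene against the other ZW27941 replicates, where the other replicate pairs of either group had 4.34 to 5.16.

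Of the 39 members, 38 had enough counts to be tested, and 22 of these changed with an adjusted p under 0.05 (quasi-likelihood test of edgeR, adjusted by Benjamini-Hochberg over all genes), where 30.1% of all genes tested did. The transcripts of most enzymes between acetyl-CoA and cholesterol fell, together with SREBF2 and INSIG1, while ABCA1, ELOVL6, NSDHL and SREBF1 rose. In all, 18 members were lower on ZW27941, where 13.8% of all genes were lower, and 4 were higher, where 16.3% of all genes were higher. With upper quartile normalization, 57.9% of all calls were lower in place of 45.8%, and 19 members were lower and 4 higher. Without ZW27941 replicate 3, 19 members were lower, 17 of them among the 18, and the same 4 were higher. The changes were small, and 15 members (12 lower, 3 higher) were called with an absolute log2 fold change of at least 0.2, a limit that 12.0% of all genes reached with a call. A log2 shift here is the fitted log2 fold change of ZW27941 over DMSO, with its standard error (SE). The median log2 fold change over the 38 members was −0.11, beside −0.0019 over all genes tested, and the extremes were −0.41 and 0.53. In 24 of the 38 the groups did not overlap (19 lower, 5 higher on ZW27941), as was so in 41.6% of all genes.

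**Figure D1:**
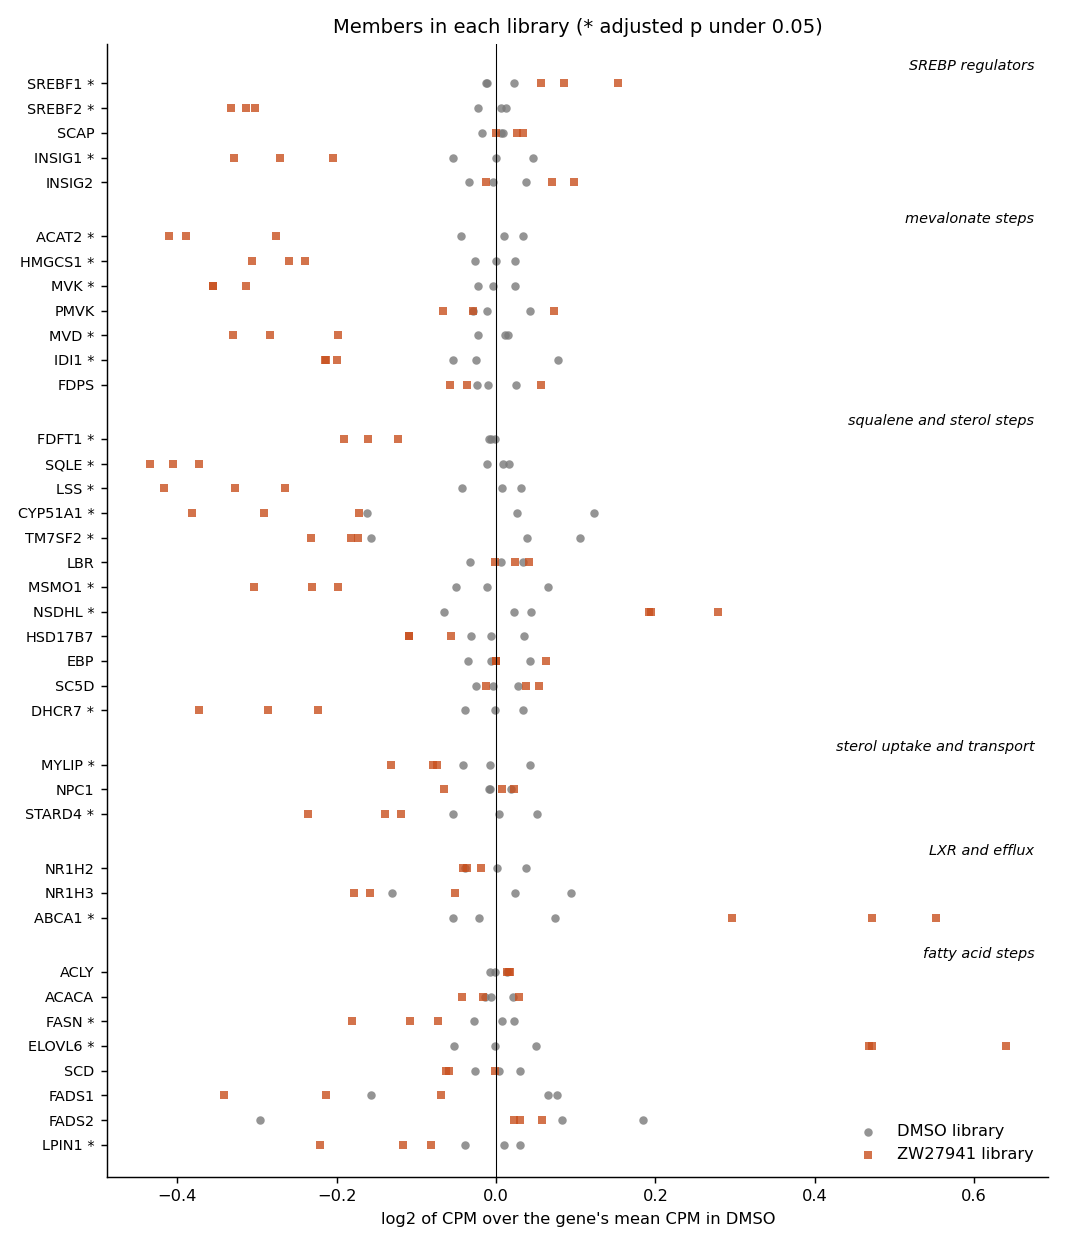
Level of each of the 38 members tested in each library, as the log2 of its CPM over the gene's mean CPM in DMSO, with grey circles for DMSO, orange squares for ZW27941 and an asterisk for an adjusted p under 0.05. The squares of most mevalonate and sterol enzymes sit to the left of every circle, and those of ABCA1 and ELOVL6 sit furthest to the right.

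Among the regulators, SREBF2, the SREBP that acts mainly on sterol synthesis, was the member with the lowest p. It lies at chr22:41833079-41907308 on the plus strand (GRCh38). Its level was 229, 235 and 234 CPM in the DMSO libraries and 189, 185 and 188 CPM in the ZW27941 libraries. Every treated library was therefore below every control, and the groups were far apart against their spread. The shift was −0.32 in log2 (SE 0.024, adjusted p = 2.80e-09), which is 19.6% less transcript. SREBF1, which encodes the SREBPs that act mainly on fatty acid synthesis, moved the other way, from 99.3, 102 and 99.1 CPM to 106, 104 and 111 CPM, a shift of 0.10 in log2 (SE 0.027, adjusted p = 0.00854). The ratio of SREBF2 to SREBF1 CPM was 2.31, 2.31 and 2.36 in DMSO and 1.78, 1.78 and 1.69 on ZW27941, so the treated libraries were lower in each case. Per kilobase of exon the mean level of SREBF2 in DMSO was 30.8 CPM and that of SREBF1 was 12.5 CPM.

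INSIG1, the sterol sensor partner whose gene is itself an SREBP target, fell with SREBF2. It was at 34.8, 32.5 and 33.7 CPM in DMSO and at 27.9, 26.8 and 29.2 CPM on ZW27941, a shift of −0.26 in log2 (SE 0.035, adjusted p = 5.74e-06). INSIG2, its paralog, was at 38.4, 39.2 and 40.3 CPM in DMSO and at 41.3, 42.1 and 38.96 CPM on ZW27941, and the groups overlapped (log2 shift 0.05, SE 0.032, adjusted p = 0.244). SCAP, the escort protein, was at 77.3, 77.3 and 76.0 CPM in DMSO and at 78.7, 76.9 and 78.3 CPM on ZW27941 (log2 shift 0.02, SE 0.025, adjusted p = 0.575). Of the 2 INSIG transcripts, the one that passed the test was thus INSIG1. The difference between the paralogs was not tested.

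The promoter of SREBF2 is shown because it was the only member promoter with a match to the sterol regulatory element searched for, TCACNCCAC on either strand. The stretch is the 250 bases before the RefSeq start (GRCh38.p14, chr22:41832855-41833104, plus strand), with that match and the NF-Y box, CCAAT on either strand, in capitals.

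SREBF2: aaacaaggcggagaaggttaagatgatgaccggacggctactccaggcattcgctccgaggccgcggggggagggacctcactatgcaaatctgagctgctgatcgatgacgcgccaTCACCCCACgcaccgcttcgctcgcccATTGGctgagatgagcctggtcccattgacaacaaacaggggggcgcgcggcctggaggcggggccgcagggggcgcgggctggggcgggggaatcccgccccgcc

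The element lies at −133 to −125 counted from the start as 0, and the NF-Y box begins at −106. The element was found in 1 of the 34 members with a promoter in the RefSeq table and in 1.39% of the 27305 genes of that table, non-coding genes included. A match is a description of the letters and not a site shown to be bound. Only these letters were searched for, so a promoter without a match is not shown to lack such an element.

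In the mevalonate steps, which run from acetyl-CoA to farnesyl diphosphate, 5 of the 7 genes fell and 0 rose. Over all genes, 13.8% were lower and 16.3% higher. The 7 log2 fold changes ran from −0.36 to −0.01, with a median of −0.27. ACAT2, which joins acetyl-CoA units in the first step, was at 57.2, 56.3 and 54.2 CPM in DMSO and at 42.7, 42.1 and 46.2 CPM on ZW27941 (log2 shift −0.36, SE 0.033, adjusted p = 6.34e-08). In GENCODE v29, 52.3% of its exon bases are also exons of genes on the opposite strand, TCP1 and SOD2 among them, and whether the counting used strand is not given in the sources used here. HMGCS1, the synthase of the next intermediate, went from 34.6, 33.4 and 34.0 CPM to 27.5, 28.8 and 28.4 CPM (log2 shift −0.27, SE 0.031, adjusted p = 9.31e-07).

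MVK, the mevalonate kinase, went from 13.4, 13.2 and 13.0 CPM to 10.3, 10.3 and 10.6 CPM, a shift of −0.34 in log2 (SE 0.043, adjusted p = 2.96e-06). MVD, the decarboxylase that makes isopentenyl diphosphate, went from 32.4, 32.4 and 31.6 CPM to 26.4, 25.5 and 28.0 CPM, a shift of −0.27 in log2 (SE 0.034, adjusted p = 2.90e-06). IDI1, the isomerase that follows, went from 35.5, 33.0 and 32.4 CPM to 29.2, 28.96 and 28.99 CPM, a shift of −0.21 in log2 (SE 0.034, adjusted p = 5.79e-05). In all 5 genes, which are those called, the highest treated library was below the lowest control. Over all genes tested, the groups did not overlap, in either direction, in 41.6%.

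Enzymes that did not pass stood between those that fell. PMVK, the kinase that acts between MVK and MVD, was at 53.9 ± 1.39 CPM in DMSO and 53.7 ± 2.70 CPM on ZW27941 (SD, n = 3 each), a log2 shift of −0.01 (SE 0.033). FDPS, the synthase of farnesyl diphosphate, was at 195 ± 3.46 CPM and 193 ± 8.23 CPM (SD, n = 3 each), a log2 shift of −0.01 (SE 0.028). The groups overlapped in both genes. FDPS has processed pseudogenes that could share its reads, and the part of this in its value was not tested. Per kilobase of exon, FDPS and PMVK were at 52.3 and 42.1 CPM in DMSO, and the 5 that fell at 2.04 to 13.0 CPM.

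**Figure D2:**
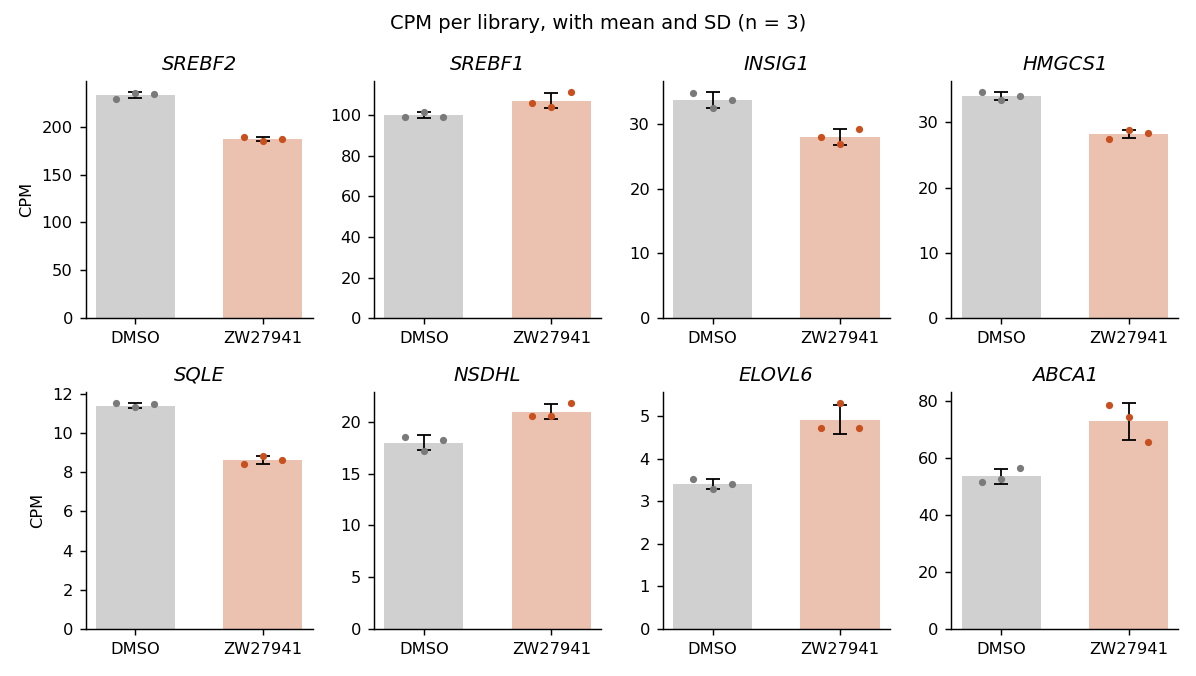
CPM of 8 members in the DMSO and ZW27941 libraries, with a point per library, a bar for the mean and a line for the SD (n = 3), each axis starting at 0. SREBF2, INSIG1, HMGCS1 and SQLE were lower on ZW27941, and SREBF1, NSDHL, ELOVL6 and ABCA1 were higher. The groups overlapped in none of these 8, all of them members with an adjusted p under 0.05. They overlapped in 14 of the 38 members tested, and did not overlap in 41.6% of all genes.

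In the squalene and sterol steps, which lead from farnesyl diphosphate to cholesterol, 7 of the 12 genes fell and 1 rose. Over all genes, 13.8% were lower and 16.3% higher. The median log2 fold change of the 12 was −0.17. SQLE, the squalene epoxidase and a rate-limiting enzyme of the pathway, had the largest fall of any member. It was at 11.5, 11.3 and 11.5 CPM in DMSO and at 8.44, 8.81 and 8.61 CPM on ZW27941, a shift of −0.41 in log2 (SE 0.047, adjusted p = 9.45e-07), which is 24.7% less transcript. LSS, which closes the rings to lanosterol, went from 35.8, 35.2 and 34.0 CPM to 27.9, 26.2 and 29.1 CPM (log2 shift −0.33, SE 0.036, adjusted p = 3.92e-07). FDFT1, which makes squalene, fell less, from 129 ± 0.323 CPM to 116 ± 2.72 CPM (SD, n = 3 each), a log2 shift of −0.15 (SE 0.025).

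DHCR7, which makes cholesterol from its dehydro precursor, went from 20.9, 19.9 and 20.4 CPM to 15.8, 16.7 and 17.5 CPM (log2 shift −0.29, SE 0.039, adjusted p = 6.63e-06). MSMO1, an oxidase that removes methyl groups from lanosterol derivatives, went from 13.7, 12.7 and 13.0 CPM to 10.6, 11.4 and 11.2 CPM (log2 shift −0.25, SE 0.046, adjusted p = 2.73e-04). CYP51A1, the lanosterol demethylase, was low, at 2.25, 2.11 and 1.85 CPM in DMSO and 1.69, 1.84 and 1.59 CPM on ZW27941. Its shift was −0.28 in log2 (SE 0.097, adjusted p = 0.0329), and the call was lost in 4 of 6 fits without 1 library (DMSO replicate 1 or 2, ZW27941 replicate 1 or 3), with log2 fold changes of −0.35 to −0.22. Other genes of GENCODE v29 share 83.2% of its exon bases, some on the same strand, and the part of this in the value was not tested. TM7SF2, a sterol reductase at 5.70 ± 0.526 CPM and 4.98 ± 0.109 CPM (SD, n = 3 each), had a shift of −0.20 in log2 (SE 0.070, adjusted p = 0.0370), a call that was also lost in 4 of those 6 fits (DMSO replicate 2 or 3, ZW27941 replicate 1 or 2), with values from −0.27 to −0.14.

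NSDHL, the dehydrogenase that works on the same methyl groups as MSMO1, was the exception that rose. It was at 18.6, 17.2 and 18.3 CPM in DMSO and at 20.6, 20.6 and 21.8 CPM on ZW27941, a shift of 0.22 in log2 (SE 0.038, adjusted p = 1.12e-04). The other 4 genes of these steps did not pass. LBR, which is a lamin-binding protein of the nuclear membrane as well as a sterol reductase, was at 251 ± 5.85 CPM and 255 ± 3.84 CPM (SD, n = 3 each). EBP, an isomerase, and SC5D, a desaturase, had log2 fold changes of 0.02 and 0.03 (standard errors 0.031 and 0.044). HSD17B7, a reductase with a near-identical pseudogene, had a shift of −0.09 in log2 (SE 0.039, adjusted p = 0.0849), and its treated libraries were all below its controls. Without ZW27941 replicate 3 it passed (−0.11, adjusted p = 0.0477).

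Counted over both stretches of the pathway, 12 of the 19 enzymes were lower and 1 was higher. Over all genes, 13.8% were lower and 16.3% higher, and the members were chosen with earlier results of these data known. The plot of change against level sets the members by abundance. The transcripts most abundant per kilobase in DMSO were MYLIP, FDPS and LBR, at 96.5, 52.3 and 47.8 CPM per kb, and these 3 also led when the longest transcript was used as the length. Of these, MYLIP fell and FDPS and LBR did not pass. SQLE was at 2.66 and MVK at 2.04 CPM per kb. SREBF2, FASN and FDFT1, which also fell, were at 30.8, 28.9 and 24.7 CPM per kb. SC5D and NPC1, which did not pass, were at 2.01 and 2.86 CPM per kb. A relation between level and change was not tested.

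**Figure D3:**
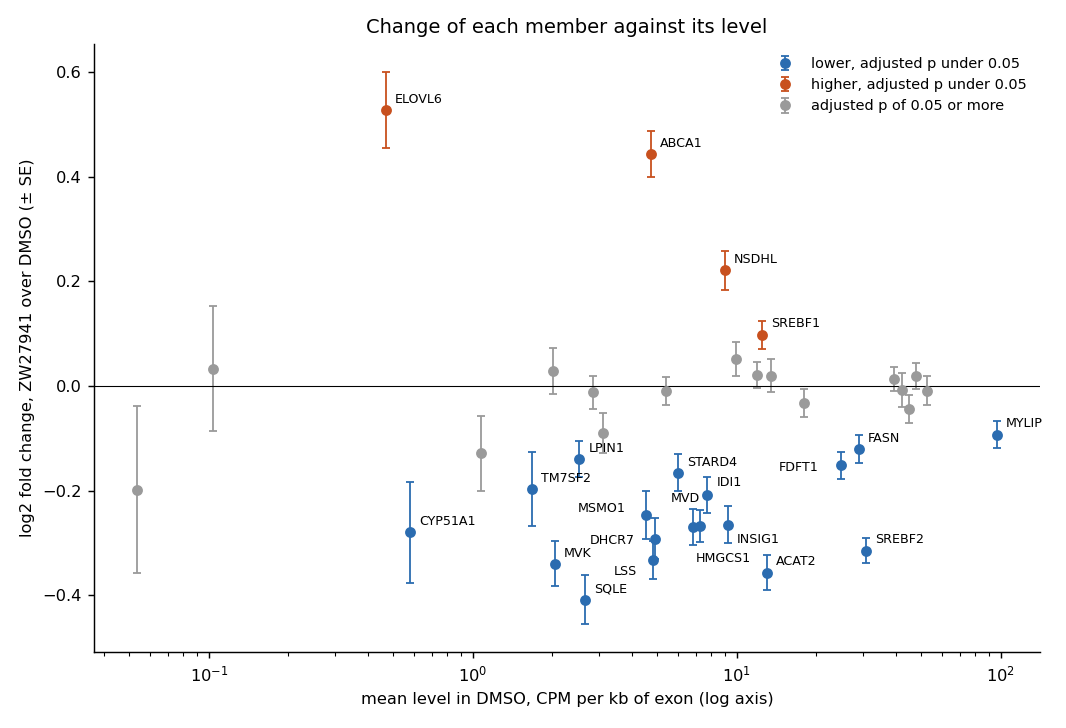
Log2 fold change of each of the 38 members tested (ZW27941 over DMSO, bars ± standard error) against its mean level in DMSO in CPM per kilobase of exon, on a log axis. Members called lower (blue) run from −0.41 for SQLE to −0.09 for MYLIP, those called higher (orange) from 0.10 for SREBF1 to 0.53 for ELOVL6, and the members that did not pass are grey.

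Of the genes for sterol uptake and transport, MYLIP and STARD4 fell and NPC1 did not pass. MYLIP, a ubiquitin ligase that lowers sterol uptake by marking lipoprotein receptors for breakdown and that is known as an LXR target, was at 293 ± 8.61 CPM in DMSO and 274 ± 6.04 CPM on ZW27941 (SD, n = 3 each). Its shift was −0.09 in log2 (SE 0.026, adjusted p = 0.0103), and without DMSO replicate 3 it no longer passed (adjusted p = 0.0996). STARD4, a carrier of cholesterol through the cytosol and an SREBP target, went from 34.0 ± 1.23 CPM to 30.3 ± 1.30 CPM (SD, n = 3 each), a shift of −0.17 in log2 (SE 0.035, adjusted p = 9.61e-04). NPC1, which exports cholesterol from lysosomes, had a log2 shift of −0.01 (SE 0.032).

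ABCA1, which moves cholesterol out of the cell and is a classical LXR target, had the second largest rise. It lies at chr9:104781002-104928237 on the minus strand. Its level was 51.6, 52.8 and 56.4 CPM in DMSO and 78.6, 74.3 and 65.8 CPM on ZW27941, so the lowest treated library, replicate 3, was still above the highest control. The shift was 0.44 in log2 (SE 0.044, adjusted p = 1.77e-07), which is 36.0% more transcript, and without ZW27941 replicate 3 it was 0.51. The receptors did not pass. NR1H3 was at 4.43, 5.18 and 4.93 CPM in DMSO and at 4.35, 4.68 and 4.29 CPM on ZW27941 (log2 shift −0.13, SE 0.072, adjusted p = 0.194), and NR1H2 had a log2 shift of −0.03 (SE 0.027). ABCG1, the partner exporter, was close to absent, with 0 to 4 counts per library. It was not tested, so a change of it was not detectable.

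In fatty acid synthesis 2 of 8 genes fell and 1 rose, beside 13.8% lower and 16.3% higher over all genes, and the median log2 fold change was −0.026. A difference from the sterol branch was not tested. FASN, the fatty acid synthase, went from 270 ± 4.81 CPM to 248 ± 9.37 CPM (SD, n = 3 each), a shift of −0.12 in log2 (SE 0.027, adjusted p = 0.00180). LPIN1, a phosphatidate phosphatase and SREBP target, had a shift of −0.14 in log2 (SE 0.035, adjusted p = 0.00428). ELOVL6, which lengthens saturated fatty acids and is a known target of the SREBF1 products, had the largest rise of any member. It was at 3.53, 3.29 and 3.41 CPM in DMSO and at 4.73, 5.31 and 4.72 CPM on ZW27941, a shift of 0.53 in log2 (SE 0.073, adjusted p = 1.01e-05). This is 44.2% more of a transcript that, at 0.467 CPM per kb in DMSO, was among the low ones.

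The enzymes ahead of FASN did not pass. ACLY, which makes cytosolic acetyl-CoA from citrate, had a log2 shift of 0.01 (SE 0.023), and ACACA, the carboxylase that follows it, of −0.01 (SE 0.027). SCD, the main desaturase of saturated fatty acids, was at 240 ± 4.74 CPM and 233 ± 5.66 CPM (SD, n = 3 each), a shift of −0.04 in log2 (SE 0.026, adjusted p = 0.215). Without ZW27941 replicate 3 its log2 fold change was −0.067 (adjusted p = 0.0352). FADS1 and FADS2, the desaturases of polyunsaturated fatty acids, were at 0.547 and 1.14 CPM in DMSO, and their log2 fold changes of −0.20 and 0.03 had standard errors of 0.16 and 0.12, so changes of this size were not detectable.

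Promoters of further members are printed to show where the NF-Y box lay. The NF-Y box is bound by a factor known to act beside SREBPs. In the window from 250 bases before to 50 after the start, 39.7% of the genes of the RefSeq table had it, non-coding genes included. Among the members it was found in 12 of 14 that were lower and had a promoter in the table, in 1 of 4 that were higher and in 9 of 16 that did not pass. The SP1 box, GGGCGG on either strand, was found in 14 of 14, 3 of 4 and 15 of 16, where 48.3% of genes had it, and the E-box, CACGTG, in 2, 1 and 2 of them, where 8.77% of genes had it. ABCG1, ACAT2, FASN, FDFT1 and SQLE had no entry. A gene was counted if any of its promoters held a match. Per promoter, the NF-Y box was found in 26 of the 49 promoters of members and in 34.61% of all promoters. A relation between these boxes and the calls was not tested. MVD and MSMO1 fell, and NSDHL and ABCA1 rose. The stretches are again the 250 bases before the RefSeq start in GRCh38.p14, MVD at chr16:88663092-88663341, minus strand, MSMO1 at chr4:165327419-165327668, plus strand, NSDHL at chrX:152830813-152831062, plus strand and ABCA1 at chr9:104928156-104928405, minus strand, with the NF-Y boxes in capitals.

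MVD: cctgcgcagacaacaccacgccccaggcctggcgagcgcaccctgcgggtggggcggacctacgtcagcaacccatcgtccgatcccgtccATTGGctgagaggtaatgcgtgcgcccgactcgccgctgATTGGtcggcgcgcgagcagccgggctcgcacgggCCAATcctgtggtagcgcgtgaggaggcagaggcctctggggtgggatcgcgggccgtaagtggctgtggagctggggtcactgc

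MSMO1: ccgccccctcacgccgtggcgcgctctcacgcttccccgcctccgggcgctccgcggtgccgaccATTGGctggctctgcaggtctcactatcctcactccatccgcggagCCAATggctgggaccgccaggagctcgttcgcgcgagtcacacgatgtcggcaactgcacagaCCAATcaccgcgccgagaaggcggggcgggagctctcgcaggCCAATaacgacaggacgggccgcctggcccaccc

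NSDHL: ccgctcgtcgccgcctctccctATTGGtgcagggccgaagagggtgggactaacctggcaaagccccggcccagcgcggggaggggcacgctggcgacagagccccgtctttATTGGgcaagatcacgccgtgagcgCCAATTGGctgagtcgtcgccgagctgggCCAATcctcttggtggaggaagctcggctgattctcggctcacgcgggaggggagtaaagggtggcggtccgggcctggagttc

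ABCA1: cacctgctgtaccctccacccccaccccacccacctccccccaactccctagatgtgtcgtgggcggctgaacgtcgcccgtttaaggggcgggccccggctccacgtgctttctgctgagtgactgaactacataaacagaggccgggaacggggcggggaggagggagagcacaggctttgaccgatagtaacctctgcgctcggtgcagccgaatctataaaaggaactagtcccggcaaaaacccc

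MVD held 3 such boxes, MSMO1 held 4 and NSDHL held 5, of which a pair overlap on opposite strands. ABCA1 held none in these letters. FDPS, which did not pass, held 3.

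Genes around the members were counted from 6 further lists. Over all genes tested, 16.3% were higher and 13.8% lower. Of the 9 genes that process SREBPs or break down their regulators, 3 rose and 0 fell. MBTPS1, the first of the Golgi proteases that release the SREBPs, went from 90.4 ± 0.607 CPM to 102 ± 1.67 CPM (SD, n = 3 each), a log2 fold change of 0.17 (adjusted p = 1.52e-05), and RNF145, a sterol-responsive ubiquitin ligase, had one of 0.09. Of the 9 genes of the branches that leave the mevalonate pathway before squalene, 5 rose and 0 fell. COQ2, which builds coenzyme Q, had a log2 fold change of 0.26 (adjusted p = 4.34e-06), and NUS1, a subunit of the dolichol-making prenyltransferase, of 0.16.

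Of the 13 sterol handling genes tested, 4 rose and 2 fell, beside 16.3% higher and 13.8% lower over all genes. CYP27A1, which makes an oxidized sterol that activates LXRs, went from 1.68 ± 0.220 CPM to 2.44 ± 0.0657 CPM (SD, n = 3 each), a shift of 0.54 in log2 (SE 0.096, adjusted p = 1.87e-04), and SOAT1, which esterifies cholesterol for storage, had one of 0.15. Of the 6 partners and targets of LXRs, 2 rose and 2 fell. LPCAT3, a phospholipid acyltransferase, had a log2 fold change of 0.13. In GENCODE v29, 65.6% of its exon bases are also exons of EMG1 on the opposite strand. The part of this in the value was not tested. CH25H had 0 counts in every library.

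Other genes of fatty acid synthesis were split, with 3 of 16 higher and 3 lower, beside 16.3% and 13.8% over all genes. The acyl-CoA synthetases ACSL3 and ACSL1 had log2 fold changes of 0.16 and −0.15. Of 10 genes of fatty acid oxidation, 4 fell and 1 rose. CPT1A, which admits fatty acids to mitochondria, had a log2 fold change of −0.13, and CPT2, its partner at the inner membrane, of 0.15. Over the 6 lists together, 18 of the 63 genes tested were higher and 11 were lower, with a median log2 fold change of 0.03. With upper quartile normalization the balance turned, to 14 higher and 17 lower, and without ZW27941 replicate 2 it was 15 higher and 7 lower.

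**Figure D4:**
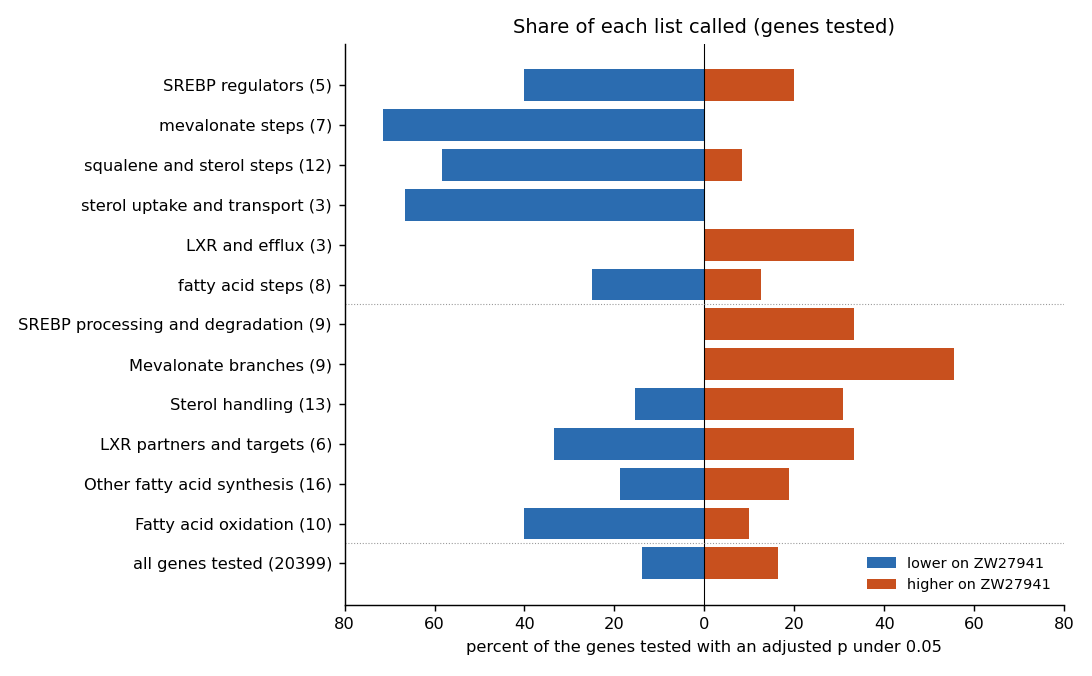
Share of the genes tested in each group of members (above the first dotted line), in each further list (between the lines) and among all genes (below) with an adjusted p under 0.05, to the left for lower and to the right for higher on ZW27941. The mevalonate steps reach furthest to the left (5 of 7 genes) and the mevalonate branches furthest to the right (5 of 9), against 13.8% lower and 16.3% higher over all genes.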

How the data were processed

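The data are 6 MOLM13 RNA-seq libraries, for each of which the authors gave raw, unnormalized counts by gene symbol. The submitters' processing notes name hg38, HISAT2, SAMtools 1.19.2 and HTSeq 2.0.3, and the annotation and strand setting are not given in the sources used here. The 5 HTSeq tallies of unassigned reads (37.42% to 39.76% per library) were left out. The test was that of edgeR 4.0.16 in R 4.3.3 (TMM, filterByExpr, quasi-likelihood test on the 3 against 3 libraries), and p-values were adjusted by Benjamini-Hochberg across all 20399 genes that passed the filter, and called at 0.05. CPM used TMM factors. A mean chi-square of 1 per gene between replicates would be sampling noise alone, and the smallest was 4.34. No pair of replicates thus differed by sampling noise alone. All libraries were kept, ZW27941 replicate 3 among them. The test was also run on counts simulated from its own fitted dispersion, which checks the code and not the calls made here. GENCODE v29 (GRCh38, the build of hg38, not necessarily the authors' annotation) gave places and exon lengths, and RefSeq (GRCh38.p14) the promoters of 34 members. All 39 members were named, with values per library for those called with an absolute log2 fold change of at least 0.2 and for SREBF1, INSIG2, SCAP and NR1H3, and in each further list the 2 called genes with the lowest p, apart from a gene that is not reported here. Members and lists were chosen with earlier results of these data known. Alternatives were other normalizations, filters and tests (DESeq2 1.42.0 among them), a replicate block and each library left out.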

Additional observations from a re-analysis of the deposited data

How the results depend on the processing

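All 4 members that rose, and all but CYP51A1, TM7SF2 and MYLIP of the 18 that fell, kept their direction and their call under every other normalization, filter and test tried and in each of the 6 fits that left out a library, apart from the stricter threshold. At an adjusted p under 0.01, 15 members were lower and 4 higher, and over all genes 4005 were called, 1725 of them lower and 2280 higher. Members called lower numbered 18 or 19 under the other normalizations, filters and tests and 16 to 19 without 1 library. The median over the members was −0.13 with upper quartile normalization. The further lists had 17 genes lower and 14 higher, in place of 11 and 18, with upper quartile normalization, and 7 to 12 lower without 1 library, with the 7 found without ZW27941 replicate 2.

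The fit with the replicate number as a block called 6010 genes in place of 6149 and the same 18 and 4 members. Deviations of libraries with the same number had correlations of −0.012, 0.012 and 0.017, so no shared deviation was seen. Whether libraries with the same number were handled together is not known. The block changed no call of a member.

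Members that did not pass and lay near 0 changed sign. With upper quartile normalization SCAP was at −0.0022, LBR at −0.0048, EBP at −0.0031 and ACLY at −0.0094, and with library size only PMVK was at 0.0022, FDPS at 0.00082 and ACACA at 0.0010. Without 1 library, log2 fold changes ran from −0.051 to 0.020 for PMVK, from −0.047 to 0.012 for FDPS, from −0.0035 to 0.042 for EBP, from −0.030 to 0.012 for NPC1, from −0.029 to 0.0059 for ACACA and from −0.097 to 0.13 for FADS2. HSD17B7 was called lower with upper quartile normalization (adjusted p = 0.0299) and without ZW27941 replicate 3 (adjusted p = 0.0477). With the 250 bases before the start only, 1 lower member held the E-box. The causes were not tested. Low counts limit FADS1, FADS2 and ABCG1.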

Other observations

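FADS3, a gene beside FADS1 and FADS2 that was chosen here after its value was seen, went from 4.66 ± 0.239 CPM in DMSO to 3.56 ± 0.258 CPM on ZW27941 (SD, n = 3 each), a log2 shift of −0.39 (SE 0.074, edgeR adjusted p = 3.93e-04). It was the largest fall among the 63 genes of the further lists that were tested.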
